A study of Mus musculus with 4 samples.

Results

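The homeobox genes of the 4 Hox clusters were followed in mouse colon. All probes whose gene name was Hoxa, Hoxb, Hoxc or Hoxd followed by a number were taken, which gave 52 of the 56605 probes on the array and 39 genes. Of these genes, 27 could be tested, among 19325 genes tested in all. RNA of whole colon was measured on 4 one-colour Agilent arrays, 2 from mutant mice with the genotype Junb fl/fl Cd4-Cre and 2 from control mice with the genotype Junb fl/fl, all of strain C57BL/6. Every mouse had been given dextran sulfate sodium (DSS), which injures the colon epithelium, in its drinking water, and colons were taken on day 5, so no array is of an untreated mouse. The controls carried the same floxed alleles of Junb, a gene for an AP-1 transcription factor. Cd4-Cre deletes floxed alleles in T cells and not in the epithelium, muscle or connective tissue that make up most of the organ. The labels give neither the age and sex of the mice nor the stretch of colon that was taken, and they do not say whether same-numbered mice of the genotypes were related.

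Hox genes encode transcription factors that give cells their address along the body axis. They lie in clusters in the order in which they are used, so genes with low numbers are active from the front of the body backwards and genes with high numbers only towards its tail end. In the adult gut this address is kept, mainly in connective tissue and muscle and in part in the epithelium, and the genes of paralogue group 13 mark the hindgut and its most distal end. Hox proteins bind DNA through the homeodomain, often together with partners of the Pbx and Meis families.

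The following Hox probes lie within coding sequence and are shown because they carry what defines the family, the homeobox, or the motif by which Hox proteins of the front and middle of the body bind Pbx. Capitals mark codons at the start of the DNA-recognition helix in Hoxd10, and the Pbx-binding motif in Hoxa6. The Hoxa13 probe covers a part of its homeobox outside that helix and has no capitals. All are written 5′ to 3′ as on the array, with mm9 positions of the array design: Hoxa13 on the minus strand of chr6:52208980-52209039, Hoxd10 on the plus strand of chr2:74532280-74532339 and Hoxa6 on the minus strand of chr6:52158194-52158253.
Hoxa13: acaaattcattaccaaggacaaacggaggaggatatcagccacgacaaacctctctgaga
Hoxd10: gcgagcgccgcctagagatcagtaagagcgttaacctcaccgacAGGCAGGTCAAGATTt
Hoxa6: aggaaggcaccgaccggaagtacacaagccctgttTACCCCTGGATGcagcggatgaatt

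The 250 bases before the start sites of Hoxa13 and Hoxd13 are shown because these genes, on different chromosomes, differed between arrays in the same direction. They come from RefSeq (GRCm38.p6), and capitals mark CCAAT and TATAAA on either strand. The Hoxd13 window is chr2:74667975-74668224 on the plus strand, and the Hoxa13 window is chr6:52260881-52261130 on the minus strand.
Hoxd13: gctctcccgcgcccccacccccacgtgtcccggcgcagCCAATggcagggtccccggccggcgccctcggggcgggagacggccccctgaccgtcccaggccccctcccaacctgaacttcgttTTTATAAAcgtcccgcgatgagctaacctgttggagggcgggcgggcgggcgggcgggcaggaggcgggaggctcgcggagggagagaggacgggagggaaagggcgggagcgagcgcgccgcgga
Hoxa13: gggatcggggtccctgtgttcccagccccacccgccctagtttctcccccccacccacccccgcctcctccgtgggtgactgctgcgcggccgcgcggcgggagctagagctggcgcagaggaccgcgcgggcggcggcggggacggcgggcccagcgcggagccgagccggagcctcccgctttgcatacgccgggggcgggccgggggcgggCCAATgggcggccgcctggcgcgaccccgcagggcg
Each window held 1 CCAAT, a motif found in 33.8% of 32851 promoter windows of this length. TATAAA was found in 12.4% of all windows and in that of Hoxd13, where matches on both strands overlap, but not in that of Hoxa13. The letters TTTAT, the core of sites bound by caudal-type homeodomain proteins such as Cdx2, were found in 37.3% of all windows. In the Hoxd13 window they overlap the TATAAA match, and the Hoxa13 window had none. Both windows were rich in G and C, at 74.4% for Hoxd13 and 80.0% for Hoxa13, against a median of 52.4% over all windows. The table holds windows of 22 Hox genes, and none was given for Hoxb13.

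All arrays lay on 1 slide and were read in 1 scan. Between 27939 and 29093 probes per array were well above background by the scanner software's flag, among them 33 to 35 Hox probes per array, and no spot was saturated. With 2 arrays per genotype, the number of arrays limits the precision, and nothing in the labels says that the mice came from separate experiments. Junb averaged 4.45 in the mutants and 4.31 in the controls on the log2 scale used throughout, in which the 75th percentile of each array is 0. The difference of 0.15 ± 0.11 (SE) did not pass the test (limma adjusted p = 0.691). Junb is expressed by many cell types of the colon, so whole colon gives no check of its deletion in T cells. All 12 genes of the colon epithelium list were above background, with a summed level of 10.6 to 10.8 on every array. Of the T cell genes, 10 of 10 had a lower mean in the mutants (46.6% of all genes). At an unadjusted p under 0.05, 6 of them were lower (3.98% of all genes). Among the 6, Cd8a was well above background only in the controls. It entered the test through them alone, so its mean had to be lower in the mutants. In RNA of a whole organ, fewer cells of a kind and less RNA per cell cannot be told apart.

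Which Hox genes were detected followed the clusters. Of the 39 genes, 24 had a probe well above background on all 4 arrays, 4 on some arrays and 11 on none. In cluster A, 10 of 11 genes passed on all arrays, Hoxa13 among them. Its remaining member, Hoxa4, passed on 1 mutant array only. In cluster B, 9 of 10 genes passed on all arrays, all but Hoxb1, the most anterior.

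Most of cluster C was not detected. Of its 9 genes 7, among them the posterior genes Hoxc9 to Hoxc13, were above background on no array. Hoxc4 and Hoxc6 passed on 2 arrays each. In cluster D, 5 of 9 genes passed on all arrays, Hoxd12 on 2, and Hoxd1, Hoxd3 and Hoxd11 on none. Anterior genes (groups 1 to 3) could be tested in 5 of 8 cases, central genes (4 to 8) in 12 of 15 and posterior genes (9 to 13) in 10 of 16. Members of group 13 were thus present from every cluster but C. A gene that is not above background has only an upper limit here, and probes of different genes were not compared in level.

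**Figure D1:**
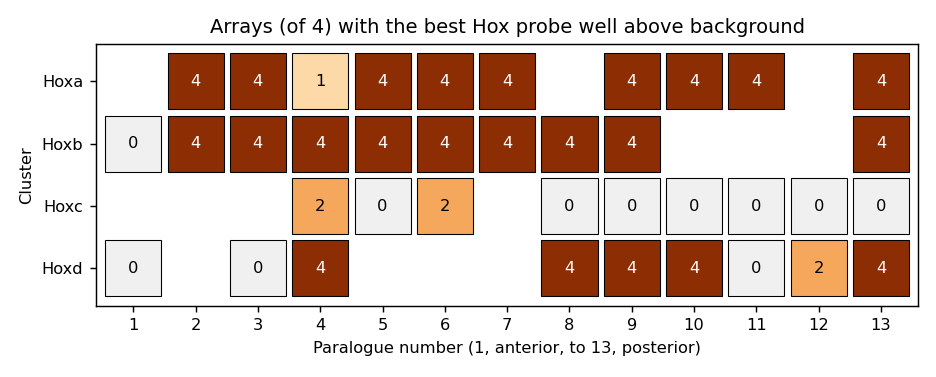
Detection of the Hox genes, with the paralogue number on the horizontal axis and the cluster on the vertical axis. The number in each square is the number of arrays, of 4, on which the gene's best probe was well above background, and empty places have no gene shown. Clusters A and B are almost filled, while 7 of 9 genes of cluster C stand at 0.

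Hoxb13, which in the adult colon is known as a marker of the distal epithelium, differed most between arrays among the group 13 genes. Its probe (chr11:96057854-96057913) gave processed intensities of 6683 and 791 in mutants 1 and 2, against 9344 and 3758 in controls 1 and 2. On the log2 scale these were 4.43 and 1.56 in the mutants, against 4.82 and 3.52 in the controls. The array of mutant 2 was far below the other 3, and mutant 1 lay between the controls, so the groups overlapped. The difference was -1.18 ± 0.99 (SE), a 2.26-fold lower mean in the mutants that did not pass the test (limma adjusted p = 0.724 over 19325 genes). Without mutant 2 the difference was 0.26, in the other direction, and without mutant 1 it was -2.61.

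Hoxd13, the 5′ end of cluster D and known from hindgut and limb patterning, repeated this order. Its probe (chr2:74509248-74509307) gave 0.15 and -2.50 in mutants 1 and 2, against 0.25 and -0.54 in controls 1 and 2. Mutant 2 was again the lowest and mutant 1 lay between the controls. The difference of -1.03 ± 0.87 did not pass (limma adjusted p = 0.728) and was 0.29 without mutant 2. Hoxb13 and Hoxd13 were the only tested Hox genes that differed at least 2-fold between the genotype means. Of all genes tested, 2.41% did.

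Hoxa13, which acts with Hoxd13 in forming the hindgut and the genital tract, varied less. It gave -0.28 and -1.26 in mutants 1 and 2, against -0.05 and -0.98 in controls 1 and 2. The replicate 2 array was the lower one in each genotype, and the groups overlapped. The difference was -0.25 ± 0.44 (limma adjusted p = 0.879). Hoxd12, the neighbour of Hoxd13, was well above background only on the replicate 1 array of each genotype. It measured -2.59 and -6.44 in mutants 1 and 2, against -3.15 and -4.09 in controls 1 and 2. Its difference of -0.89 ± 1.28 (limma adjusted p = 0.848) became 0.14 when values below background were set to the floor of their array.

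The 3 group 13 genes had a median difference of -1.03 between mutants and controls. It was -0.23 between the replicate 1 arrays and -1.96 between the replicate 2 arrays. Without mutant 2 the median was 0.26, and without mutant 1 it was -2.35. The size of the difference, and its sign when 1 mutant was set against both controls, thus depended on mutant 2. Within each replicate number the mutant was the lower one for 3 of 3 genes, and for 29.1% of all genes. With the replicate number as a block, Hoxb13 passed the unadjusted threshold but not the adjusted one (limma adjusted p = 0.212).

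The posterior genes of groups 9 to 11 were less variable between the arrays of a genotype than Hoxb13 and Hoxd13. Hoxd10 gave -2.58 and -2.83 in mutants 1 and 2, against -2.19 and -2.04 in controls 1 and 2. Both mutants were below both controls. Its difference of -0.59 ± 0.22 had a limma adjusted p = 0.524, and without adjustment its p was under 0.05. Hoxd9 gave -3.34 and -3.09 in mutants 1 and 2, against -3.03 and -2.53 in controls 1 and 2, again without overlap (difference -0.43 ± 0.29, limma adjusted p = 0.669).

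Hoxa9 gave -0.57 and -1.36 in mutants 1 and 2, against -0.87 and -1.30 in controls 1 and 2. Hoxa10 gave 2.53 and 1.89 in mutants 1 and 2, against 2.34 and 1.94 in controls 1 and 2. Both had overlapping groups and were lower on the replicate 2 array of each genotype. Hoxb9 gave 1.97 and 2.26 in mutants 1 and 2, against 1.92 and 2.24 in controls 1 and 2, and here the replicate 2 array was the higher one. A second Hoxb9 probe, well above background on all 4 arrays, differed by -0.02 in mutants and -0.07 in controls between replicates 2 and 1. The differences between mutants and controls for Hoxa9, Hoxa10 and Hoxb9 were 0.12, 0.07 and 0.04 in that order.

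Hoxa11, which is known from limb, kidney and uterus, was the posterior gene that differed least between arrays of a genotype. It gave 0.39 and 0.33 in mutants 1 and 2, against 0.08 and 0.19 in controls 1 and 2. Both mutants were above both controls, by 0.22 ± 0.13 on average (limma adjusted p = 0.628).

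**Figure D2:**
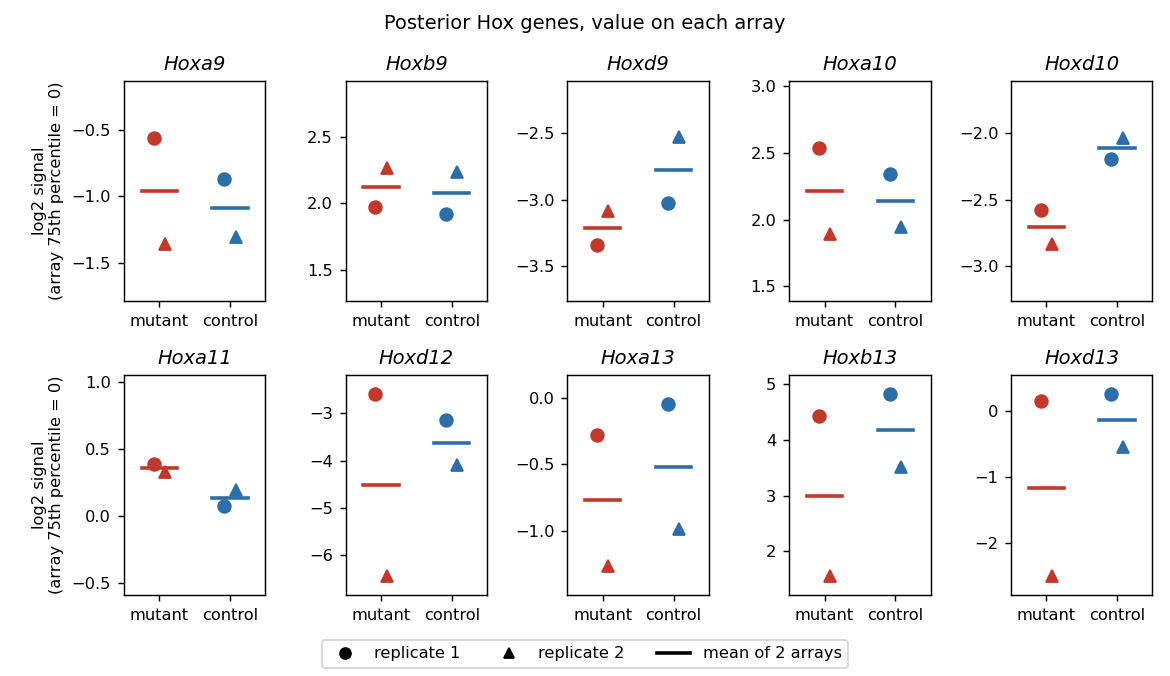
Values of the 10 posterior Hox genes tested, on the log2 scale with each array's 75th percentile at 0 (vertical axis, a different range in each panel), for mutants and controls. Circles are replicate 1, triangles replicate 2 and lines the mean of the 2 arrays. For Hoxb13 and Hoxd13 the low mutant mean comes from mutant 2, at 1.56 and -2.50, while mutant 1 lies between the controls.

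No Hox gene differed between mutants and controls past the adjusted threshold of 0.05 (limma, 27 genes), and no other gene of the 19325 did either (0%). At an unadjusted p under 0.05, 2 of 27 Hox genes were called, and 9.29% of all genes were. Both were lower in the mutants, as were 3.98% of all genes, and 0 were higher, against 5.31% of all genes. One was Hoxd10, and the other was Hoxc4, a gene used from the neck backwards in the embryo. Hoxc4 gave -4.37 and -4.16 in mutants 1 and 2, against -3.25 and -3.37 in controls 1 and 2. Its probe (chr15:102867213-102867272) was not well above background in either mutant and passed in both controls.

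For Hoxc4 the difference was -0.95 ± 0.31 (limma adjusted p = 0.477). It entered the test through the controls alone, so its mean had to be lower in the mutants. Normexp background correction gave a difference of -0.13 for it. Neither Hoxc4 nor Hoxd10 passed the unadjusted threshold with any 1 array left out. The central gene Hoxb6 had the largest positive difference, with 2.04 and 2.46 in mutants 1 and 2, against 1.82 and 1.90 in controls 1 and 2. Its difference was 0.39 ± 0.17 (limma adjusted p = 0.565).

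Of the 27 tested genes 18 had a lower mean in the mutants, against 46.6% of all genes tested. The median difference was -0.12, and 0.02 over all genes. Within both replicate numbers 12 genes were lower (29.1% of all genes) and 4 higher (36.3% of all genes). Mutant and control values did not overlap for 6 of the 27 genes, against 43.2% of all genes. They were 4 genes lower in the mutants (17.6% of all genes) and 2 higher (25.7% of all genes). Hoxc4, which entered the test through the controls alone, is among the lower genes in these counts and in that of the central class. By class, 5 of 5 anterior genes, 7 of 12 central genes and 6 of 10 posterior genes had a lower mean in the mutants. Their medians were -0.12, -0.02 and -0.34, and the posterior median was 0.25 without mutant 2.

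In cluster D all tested genes, 6 of 6, had a lower mean in the mutants (46.6% of all genes), as had 2 of 2 in cluster C. Of the latter, Hoxc4 entered the test through the controls alone. Hoxc6 was well above background on 1 array of each genotype. Those of cluster D were Hoxd4, Hoxd8, Hoxd9, Hoxd10, Hoxd12 and Hoxd13, with a median of -0.51. Hoxd8, Hoxd9 and Hoxd10, all lower, did not overlap between the genotypes. Of all genes, 43.2% did not overlap, and 17.6% were lower without overlap. Hoxd12 was lower only on the replicate 2 arrays, and its difference became 0.14 with values below background at the floor. Hoxd4 turned to 0.03 without control 2. Cluster A had a median of -0.01 over 10 genes and cluster B of 0.01 over 9.

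**Figure D3:**
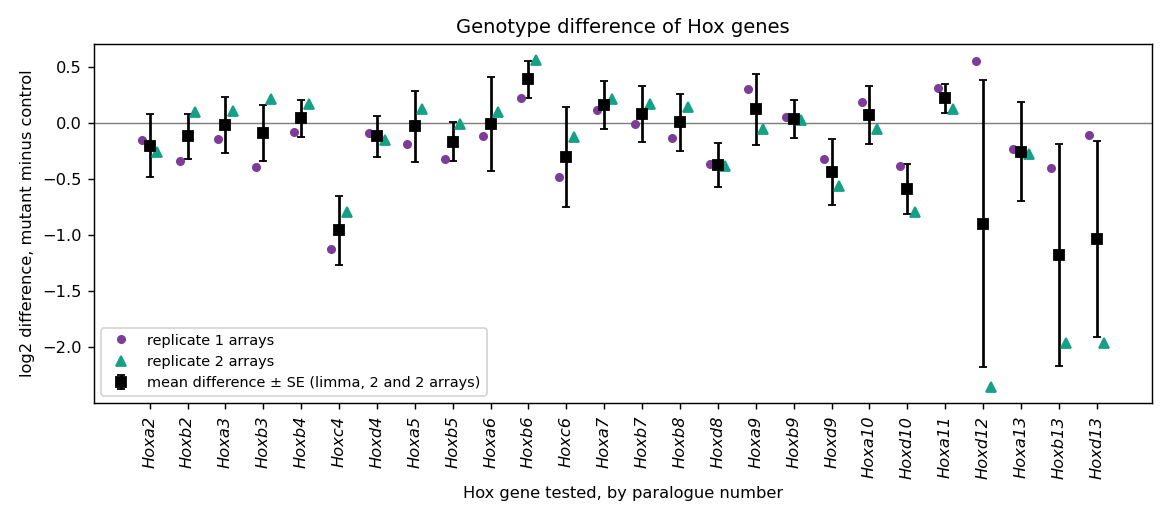
Difference between mutants and controls for the Hox genes tested, of which 1 is not shown, in order of paralogue number (horizontal axis), as log2 difference (vertical axis). Squares with bars are the mean difference ± SE from limma over 2 and 2 arrays, circles the difference between the replicate 1 arrays and triangles that between the replicate 2 arrays. Most genes lie near 0, and for Hoxd12, Hoxb13 and Hoxd13 the triangles lie near -2 while the circles do not.

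A larger pattern ran between the 2 arrays of each genotype, and it is given as a description with no test. The labels number the arrays 1 and 2 without saying that equal numbers belong together. Both replicate 2 arrays lay on the same side of both replicate 1 arrays for 19 of 27 Hox genes, and for 39.1% of all genes tested. Of the 19, 12 were lower on the replicate 2 arrays (17.5% of all genes) and 7 were higher (21.6% of all genes). The share was alike in the mesenchymal homeobox genes outside the Hox clusters, at 7 of 10 tested. The differences between the arrays of a genotype had the same sign in mutants and in controls for 22 of 27 Hox genes (81.5%), against 63% of all genes. Across the 27 genes these differences had a Pearson correlation of 0.808 and a Spearman correlation of 0.83. Over all genes the Pearson correlation was 0.239 and the Spearman correlation 0.371. The mutant and the control difference share no array, but genes of a cluster are neighbours and are not independent.

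The direction went by cluster. In cluster A, 9 of 10 genes, all but Hoxa11, were lower on both replicate 2 arrays. The median difference between replicate 2 and replicate 1 in cluster A was -0.50 in mutants and -0.45 in controls. Within it Hoxa13 (-0.97 in mutants and -0.93 in controls) and Hoxa6 (-0.65 in mutants and -0.86 in controls) had the most negative control differences. A second probe of Hoxa3 was well above background only on the replicate 1 arrays, at -2.50 and -4.13 in mutants 1 and 2, against -1.72 and -4.39 in controls 1 and 2.

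In cluster B most genes differed the other way. Of the 8 tested genes other than Hoxb13, 5 were higher on both replicate 2 arrays and 0 were lower, with Hoxb9 counted by its brightest probe. Their median difference was 0.42 in mutants and 0.10 in controls, with Hoxb7 at 0.60 in mutants and 0.42 in controls. The group 13 genes of clusters A, B and D were all lower on both replicate 2 arrays. Hoxb13 differed by -2.87 in mutants and -1.31 in controls, and Hoxd13 by -2.65 in mutants and -0.80 in controls. In cluster D, Hoxd4, Hoxd8 and Hoxd9 had positive differences in both genotypes, and Hoxd12 and Hoxd13 negative ones.

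**Figure D4:**
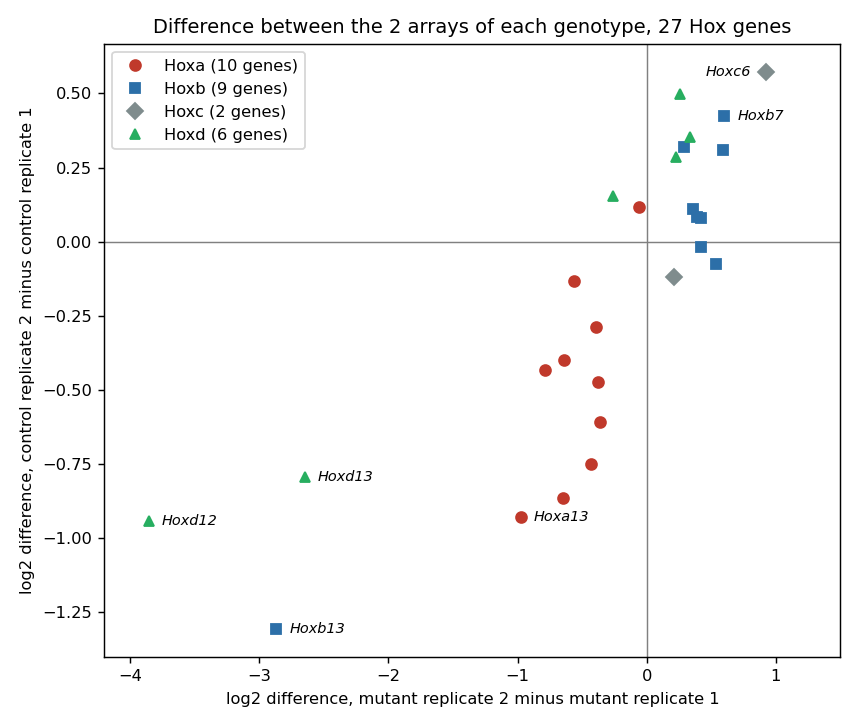
Log2 difference between replicate 2 and replicate 1 of the mutants (horizontal axis) and of the controls (vertical axis) for the 27 Hox genes tested, each point a gene and each marker a cluster. Cluster A genes other than Hoxa11 lie at the lower left, cluster B genes other than Hoxb13 on the right, and Hoxb13, Hoxd13 and Hoxd12 far to the left.

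By SD, the Hox differences were wider between the mutant arrays than between the control arrays. The SD of the differences over the 27 Hox genes was 1.13 between mutants 2 and 1, against 0.523 over all genes. It was 0.513 between controls 2 and 1, against 0.589 over all genes. The largest differences between the mutants were those of Hoxd12 (-3.85, not above background on mutant 2), Hoxb13 (-2.87) and Hoxd13 (-2.65). The median size of the difference over the 27 Hox genes was 0.42 in mutants and 0.35 in controls. Mutant 1 and control 1 were alike, with an SD of 0.322 over Hox genes and 0.543 over all genes.

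Other genes divided the arrays by replicate number too. Xist, the RNA of the inactive X chromosome, gave -0.77 and -6.43 in mutants 1 and 2, against -0.55 and -6.13 in controls 1 and 2. The Y-linked gene Eif2s3y gave -6.20 and -0.11 in mutants 1 and 2, against -6.08 and 0.20 in controls 1 and 2. The replicate 2 arrays thus had the Eif2s3y signal and lacked Xist in both genotypes. The Y-linked genes Uty and Ddx3y divided the arrays as Eif2s3y did. The probe of Kdm5d, also Y-linked, was well above background on all 4 arrays. It differed between replicates 2 and 1 by 0.19 in mutants and 0.19 in controls. The part of sex in the Hox pattern was not tested.

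The list of urogenital and prostate genes had 14 of its 15 genes on the array and 7 of them above background on none. Pbsn, a prostate secretory protein, gave -6.21 and -3.89 in mutants 1 and 2, against -6.08 and 0.89 in controls 1 and 2. Tgm4, a prostate transglutaminase, gave -4.35 and -2.70 in mutants 1 and 2, against -6.17 and 2.46 in controls 1 and 2. Both were well above background only on the replicate 2 arrays, highest in control 2. Of the 5 tested genes of the list, these 2 were higher on both replicate 2 arrays (21.6% of all genes). Upk1b and Pax8 were lower on both (17.5% of all genes), and Pax2 was neither. The summed level of the list, as log2, was -0.54 and -0.23 in mutants 1 and 2, against -0.51 and 2.99 in controls 1 and 2. The prostate also expresses Hoxb13 and Hoxd13, and the part of such tissue in their values was not tested.

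The fibroblast list was higher on both replicate 2 arrays for 7 of 10 genes (21.6% of all genes), with median differences of 0.22 in mutants and 0.62 in controls. Its summed level was 6.66 and 6.997 in mutants 1 and 2, against 6.67 and 7.30 in controls 1 and 2. Of 12 small intestine genes 7 were tested. On both replicate 2 arrays 3 of them were lower (17.5% of all genes) and 4 higher (21.6% of all genes). The ileal bile acid binding protein Fabp6 was among the lower ones, and the fatty acid binding proteins Fabp1 and Fabp2 among the higher ones, all named after their values were seen. The summed level of that list was 5.68 and 6.42 in mutants 1 and 2, against 6.12 and 6.63 in controls 1 and 2. Of 15 genes of the anal squamous epithelium 7, Krt5 and Krt13 among them, were above background on no array. The keratin Krt4, also named after its values were seen, gave -1.67 and -6.35 in mutants 1 and 2, against -3.50 and -6.04 in controls 1 and 2. It was well above background only on the replicate 1 arrays. Of the 8 tested squamous genes only 1, Krt4, was lower on both replicate 2 arrays (17.5% of all genes). Dsg3 was the only 1 that was higher on both (21.6% of all genes). The summed level of the squamous list was 2.54 and 2.61 in mutants 1 and 2, against 2.54 and 2.35 in controls 1 and 2. The part of these tissues in the Hox values was not tested.

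RNAs and genes near the 5′ end of cluster A were measured beside its Hox genes. Hoxa11os, an antisense RNA of Hoxa11, gave 3.21 and 2.30 in mutants 1 and 2, against 3.57 and 2.71 in controls 1 and 2. Hottip, a long noncoding RNA transcribed from beside Hoxa13, gave -2.89 and -4.197 in mutants 1 and 2, against -2.81 and -3.62 in controls 1 and 2. Evx1, a homeobox gene next to Hoxa13, gave -1.14 and -2.73 in mutants 1 and 2, against -1.74 and -2.37 in controls 1 and 2. All 3 were lower on both replicate 2 arrays, as Hoxa13 was and Hoxa11 was not. Evx2, the gene next to Hoxd13, gave -2.26 and -2.02 in mutants 1 and 2, against -2.13 and -2.24 in controls 1 and 2, and did not divide the arrays as Hoxd13 did.

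Of 18 tested cluster RNAs and neighbouring genes, 4 were lower on both replicate 2 arrays (17.5% of all genes) and 0 higher. Between the genotypes 1 of the 18 passed the unadjusted threshold, against 9.29% of all genes. This was Snx10, a sorting nexin encoded beyond the anterior end of cluster A, which differed by 0.85 ± 0.17 (limma adjusted p = 0.418). A probe for the cluster C RNA Hotair was above background on no array.

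Of 8 tested partners of Hox proteins, 2 passed the unadjusted threshold and both were lower in the mutants, as were 3.98% of all genes. Meis1 gave 0.21 and 0.53 in mutants 1 and 2, against 0.79 and 1.23 in controls 1 and 2, with a difference of -0.64 ± 0.21 (limma adjusted p = 0.475). Meis2 gave -0.56 and -0.32 in mutants 1 and 2, against -0.08 and 0.0042 in controls 1 and 2 (difference -0.40 ± 0.15, limma adjusted p = 0.527). Neither overlapped between the genotypes, and 17.6% of all genes were lower without overlap. Pbx3 differed by -0.28 ± 0.17 and did not pass. Smooth muscle, in which Meis1 is known to be expressed, had 9 of 10 genes lower in the mutants at an unadjusted p under 0.05 (3.98% of all genes), with a median of -0.59. The summed level of the smooth muscle list was 8.31 and 8.27 in mutants 1 and 2, against 8.70 and 8.82 in controls 1 and 2. The part of muscle in the Meis and Hox differences was not tested.

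Regulators that act upstream of the Hox genes were measured as well. Cdx2, the caudal-type factor that sets intestinal identity, gave 4.78 and 5.004 in mutants 1 and 2, against 4.39 and 4.53 in controls 1 and 2. It was higher by 0.43 ± 0.13 (limma adjusted p = 0.439) and was the single gene of 12 gut identity factors at an unadjusted p under 0.05 (9.29% of all genes). Cdx1, the related caudal-type factor, differed by 0.18 ± 0.10. Among 25 Polycomb, trithorax and CTCF genes, which keep Hox genes silent or active, 1 passed the unadjusted threshold (9.29% of all genes), Phc2 at 0.31 ± 0.11. Of 15 retinoic acid genes, 2 were lower in the mutants at that threshold (3.98% of all genes), Aldh1a1 (-0.47 ± 0.13), a retinaldehyde dehydrogenase, and Crabp1 (-0.65 ± 0.19), a retinoic acid binding protein. On both replicate 2 arrays 10 of the 15 were higher (21.6% of all genes) and 0 lower. None of 10 mesenchymal homeobox genes outside the Hox clusters passed the unadjusted threshold in limma, and none the adjusted one. On both replicate 2 arrays 6 of these 10 were higher (21.6% of all genes) and 1 lower (17.5% of all genes).

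Hormones of the distal colon are given beside the Hox genes because they too depend on position. Insl5, made by L cells of the distal colon, gave 1.22 and 0.28 in mutants 1 and 2, against 1.88 and 2.25 in controls 1 and 2. Pyy gave 3.11 and 2.89 in mutants 1 and 2, against 3.67 and 4.07 in controls 1 and 2. Both mutants were below both controls for each, as for 17.6% of all genes. Each passed the unadjusted threshold as lower in the mutants, as did 3.98% of all genes. The differences were -1.32 ± 0.33 for Insl5 and -0.87 ± 0.17 for Pyy, with a limma adjusted p = 0.418 for each. Without mutant 2 they were -0.84 for Insl5 and -0.75 for Pyy.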

How the data were processed

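Whole colon RNA of 2 mutant and 2 control mice was measured on 4 one-colour arrays. Per the file headers, the authors scanned them on 1 slide and read them with Agilent Feature Extraction 11.5.1.1, which gave background-subtracted processed signal intensities and flags. The log2 values were computed here from these deposited intensities, minus the log2 of the array's 75th percentile over non-control spots, spots with an outlier flag were dropped, and with them 11 probes that had no other spot. A probe was kept if 2 or more of the 4 arrays had it well above background, and the brightest probe on average represented its gene. Differences, mutant minus control, were tested two-sided with limma 3.58.1 (lmFit, eBayes with intensity trend) in R 4.3.3, with Benjamini-Hochberg adjustment over 19325 genes and a threshold of 0.05. The calculation was tested on simulated data.

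Of 8 Hox genes with several tested probes, 6 had differences of one sign between mutants and controls, and Hoxa9 and Hoxb9 did not. Between the replicates of each genotype 6 had differences of one sign, and Hoxb2 and Hoxb9 did not. All 39 Hox names were found among current RefSeq symbols. Values are given for every tested posterior Hox gene, for Hox genes at an unadjusted p under 0.05 or 2-fold different, and for a few partners. Values of a few genes are not reported here. Members and lists were chosen with earlier results of these data known. Alternatives were normexp correction (offset 50), quantile normalization, other filters on dim probes, no trend, a replicate block, the mean over probes, a floor and leaving out each array.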

Additional observations from a re-analysis of the deposited data

How the results depend on the processing

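No Hox gene passed the adjusted threshold under any alternative run. With the replicate block 46 genes passed it, against 0 without, and 3382 passed the unadjusted threshold, against 1796; without the filter on dim probes 3607 did, and without 1 array 864 to 2167. The count of Hox genes at an unadjusted p under 0.05, 2 as reported, was 0 after normexp correction and without the filter, 1 after quantile normalization and with the filter on all 4 arrays, 5 with the replicate block (Hoxb6, Hoxb13, Hoxc4, Hoxd8 and Hoxd10) and 0 to 4 without 1 array. The labels do not pair the replicate numbers, and the correlation of the deviations of same-numbered arrays was 0.239. The median difference of all tested Hox genes stayed between -0.20 and -0.04 without 1 array. Both summaries chosen after the data were seen, the posterior and the group 13 median, ranged from -0.51 to 0.25 and from -2.35 to 0.26, above 0 only without mutant 2. The replicate pattern, also tried with alternatives chosen then, gave 19 to 21 of 27 Hox genes without overlap and correlations of 0.75 to 0.886.

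Of 321 Hox gene differences under alternatives, 284 kept their sign; 37 in 19 genes did not. Apart from leaving out an array these were Hoxa5 (0.0088 after normexp, 0.021 after quantile), Hoxa6 (0.032, 0.072), Hoxc6 (0.016 after normexp), Hoxb9 (-0.010 after quantile) and Hoxd12 (0.14 with the floor). Beside them Hottip turned to 0.020 after normexp. Without 1 array the lowest and highest values of genes that changed sign were Hoxb2 -0.32 and 0.093, Hoxa3 -0.32 and 0.29, Hoxb3 -0.35 and 0.18, Hoxb4 -0.13 and 0.23, Hoxd4 -0.26 and 0.026, Hoxa5 -0.40 and 0.35, Hoxb5 -0.36 and 0.031, Hoxa6 -0.44 and 0.43, Hoxc6 -0.76 and 0.16, Hoxa7 -0.070 and 0.40, Hoxb7 -0.22 and 0.38, Hoxb8 -0.29 and 0.30, Hoxa9 -0.27 and 0.52, Hoxb9 -0.12 and 0.20, Hoxa10 -0.25 and 0.39, Hoxd12 -2.82 and 1.03, Hoxa13 -0.74 and 0.23, Hoxb13 -2.61 and 0.26, Hoxd13 -2.35 and 0.29, Hoxa11os -0.84 and 0.068, Hottip -0.98 and 0.32, Evx1 -0.68 and 0.92, Evx2 -0.069 and 0.17. The cause was not tested. A block on slide or scan was not run because all arrays shared both. With 2 arrays per genotype, differences of the size seen for Hoxb13 could not be told from the spread between arrays.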
